A study of Gallus gallus with 10 samples.

Results

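The HES and HEY genes HES1, HES4, HES5, HES6, HEY1, HEY2 and HEYL were taken by symbol from a table of 12464 genes, and all 7 were present. The table holds the wild type retina (optic cup) of both eyes from 5 embryos of the Dekalb white chicken, 5 operated and 5 control libraries, 1 pair per embryo. The lens was pulled from 1 eye through a slit in its dorsal side at Hamburger and Hamilton stage 23, about embryonic day 4, and both retinas were collected 6 h later. The control is the untouched opposite eye of the same embryo, so that loss of the lens and opening of the eye cannot be told apart. The comparison asks which transcripts of the retina respond when the lens is missing.

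HES and HEY proteins are basic helix-loop-helix repressors that many tissues switch on when a Notch receptor is bound by a Delta or Jagged ligand on a neighbouring cell. The cleaved receptor joins the DNA-binding protein RBPJ and a Mastermind coactivator at the promoters of these genes. In the mouse retina and brain HES1 and HES5 hold progenitors back from becoming neurons by repressing proneural genes, whereas HES6 opposes HES1 and favours differentiation. The HEY proteins are best known in mice from the heart and the vessel wall.

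At 6 h after lens removal HES1, HES5, HES6 and HEYL were higher in the operated retina, and no HES or HEY gene was called lower. HES1, HES5 and HES6 rose about alike, by 1.48-fold, 1.44-fold and 1.47-fold in the model, and HEYL by 2.11-fold (all on the log2(value + 1) scale) from a much lower level. HES4, HEY1 and HEY2 did not pass the test. Differences were tested with limma, a moderated linear model, on log2(normalised read count + 1) with the embryo as a block. P-values were two-sided, with Benjamini-Hochberg adjustment over all genes tested and a threshold of 0.05. Of the 5 members with a mean of at least 10 normalised read counts, 3 were called higher, where 10.6% of 9076 genes were called higher and 12.3% lower. HEY2 and HEYL lay below that mean and were tested in the same model without the filter, in which 4 of the 7 members were called higher and 0 lower, where 11.5% of 12464 genes were called higher and 10.1% lower. Among genes with a mean under 10, 13.9% were called higher in that fit.

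**Figure D1:**
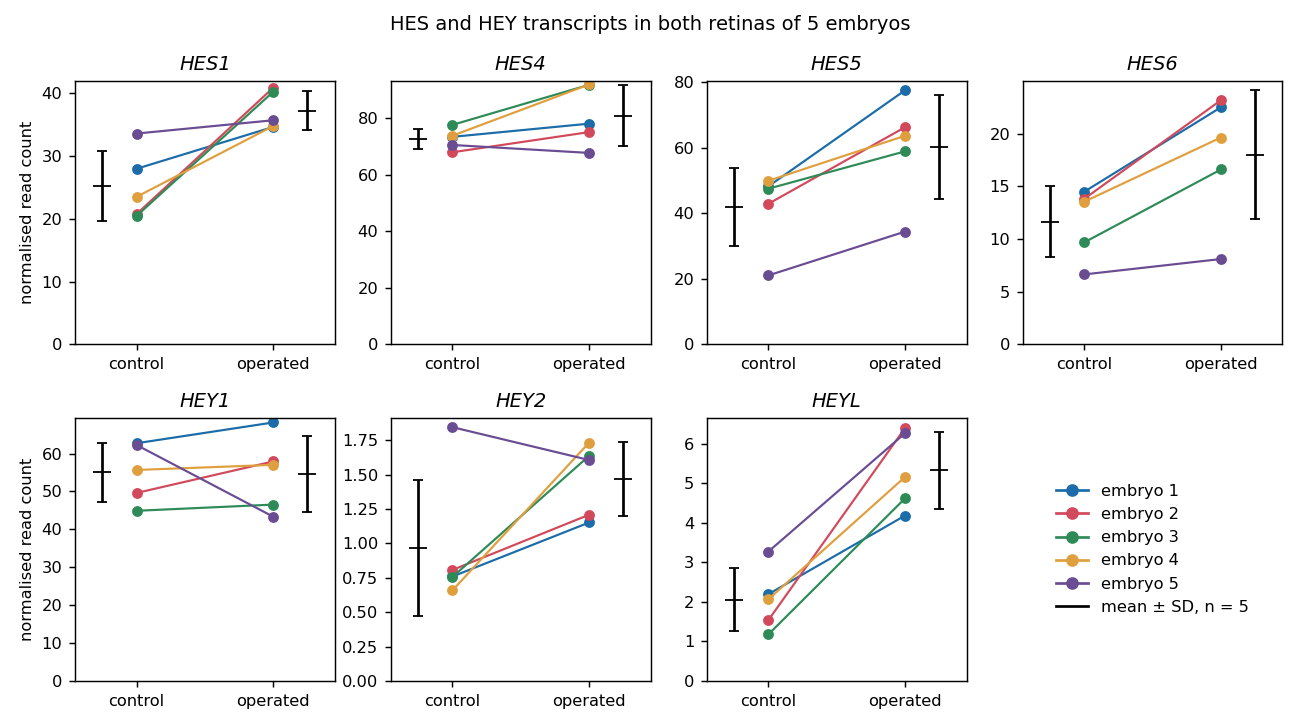
Normalised read counts (vertical axes, each starting at 0) of the 7 genes in the control and operated retina. Each line joins both eyes of 1 embryo, and the black bars give the mean ± SD of 5 retinas. HES1 and HEYL show no overlap between eyes, HES5 and HES6 rise in every embryo from different starting levels, and HEY1 falls in embryo 5 alone.

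HES1, the canonical Notch-induced repressor, had a normalised read count of 28.0, 20.8, 20.5, 23.5 and 33.6 in the control retinas of embryos 1 to 5. In the operated retinas of the same embryos it stood at 34.7, 40.9, 40.3, 34.8 and 35.7. Every operated retina thus lay above every control, a pattern shown by 6.84% of all genes. The mean rose from 25.3 ± 5.55 to 37.3 ± 3.07 (SD, n = 5), a log2 change of 0.56 (SE 0.13, limma adjusted p = 0.016). The fold within an embryo ranged from 1.06 in embryo 5 to 1.97 in embryo 2. The controls were further apart than the operated retinas: the coefficient of variation was 22.0% in the controls and 8.22% after the operation. The call was lost without embryo 2 (log2 change 0.47, limma adjusted p = 0.069) and without embryo 4 (log2 change 0.57, limma adjusted p = 0.071).

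HES5, the other main Notch effector of neural progenitors, had control levels of 48.2, 42.9, 47.5, 49.9 and 21.0 in embryos 1 to 5. The operated levels were 77.5, 66.2, 58.9, 63.6 and 34.4. Embryo 5 had the lowest level in both eyes, which makes the 2 groups overlap, yet the operated eye was higher in 5 of 5 embryos, as it was for 16.3% of all genes. The mean went from 41.9 ± 11.96 to 60.1 ± 15.9 (n = 5), with a log2 change of 0.53 (SE 0.079, limma adjusted p = 0.003). The fold lay between 1.24 in embryo 3 and 1.64 in embryo 5. Without the block the same change had limma adjusted p = 0.18.

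The value of HES5 contains fractions of reads. Small values in a library step by what 1 read contributes, and the levels of the 6 other members were whole multiples of that step in 10 of 10 libraries within a tolerance of 0.01 reads. For HES5 that held in 2 of 10, as with 1816.08 reads in the operated retina of embryo 1 and 500.67 in the control of embryo 5. Among 9310 genes with at most 2200 reads in every library, 3.97% were fractional in at least 8 libraries. Some reads of HES5 were therefore counted in part only. What they were shared with and how many they were is not known, so the level of HES5 is uncertain.

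In RefSeq's gene order (assembly GRCg7b) the nearest genes on 1 side of HES5 are LOC107057363 and LOC419390, which carry no other name in the files and were looked at after their values were seen. Whether they resemble HES5 in sequence was not tested. Their estimated reads are also fractional in several libraries, such as 9900.749 and 5849.749 in the operated retina of embryo 1. The summed reads of HES5 and both neighbours were whole in 2 of 10 libraries (tolerance 0.02 reads), no more often than those of HES5 alone. LOC419390 rose from 200 ± 46.5 to 303 ± 80.8 (log2 change 0.60, limma adjusted p = 0.0011) and was higher in 5 of 5 operated eyes. LOC107057363 rose from 177 ± 39.2 to 203 ± 46.8 (log2 change 0.19, limma adjusted p = 0.0497), also in 5 of 5. Both had their lowest level of each group in embryo 5, with 121 and 200 for LOC419390 in its control and operated eye, as HES5 did.

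HES6, known in the mouse as a promoter of neuronal differentiation, had control levels of 14.5, 13.8, 9.67, 13.5 and 6.63. The operated levels were 22.5, 23.2, 16.6, 19.6 and 8.09, higher in each of the 5 embryos. As with HES5, both eyes of embryo 5 were the lowest of their group and the ranges overlapped. The mean of 11.6 ± 3.37 in the controls compares with 17.99 ± 6.12 after the operation, and the log2 change was 0.56 (SE 0.094, limma adjusted p = 0.0049). Between 151 and 594 reads lay behind these values. Without the block limma adjusted p was 0.19.

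HES4 is the gene for which RefSeq lists the older names c-hairy1A, HAIRY1 and also HES1, so that older chicken work under the last name may mean either gene. Its levels were 73.4, 68.0, 77.7, 73.9 and 70.6 in the controls and 78.1, 75.1, 91.9, 92.0 and 67.8 in the operated retinas. The control values were the most even of the family, with a coefficient of variation of 5.03%. The operated eye was higher in 4 of 5 embryos and lower in embryo 5, and the groups overlapped. The log2 change of 0.14 did not pass (SE 0.068, limma adjusted p = 0.15), and its 95% interval ran from 0.994-fold to 1.23-fold.

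HEY1 stood at 62.7, 49.6, 44.9, 55.7 and 62.3 in the controls and at 68.2, 57.9, 46.5, 57.02 and 43.3 in the operated retinas. In embryos 1 to 4 the operated level was 1.02 to 1.17 times the control, and in embryo 5 it was 0.696 times. The mean was 55.0 ± 7.81 in the controls and 54.6 ± 9.93 after the operation. The log2 change was -0.02 (SE 0.10, limma adjusted p = 0.92), with a 95% interval from 0.842-fold to 1.16-fold. Without embryo 5 it was 0.11 (limma adjusted p = 0.30).

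HEYL, a Notch target that in mice marks vascular smooth muscle, was low in the controls, at 2.19, 1.54, 1.18, 2.07 and 3.27. It reached 4.18, 6.40, 4.62, 5.16 and 6.27 in the operated retinas. The lowest operated retina lay above the highest control, and the increase was 1.91-fold to 4.16-fold within an embryo. On the log2(value + 1) scale, which understates changes at such levels, the change was 1.08 (SE 0.14, limma adjusted p = 0.0012 without the filter). Only 93 of the 12464 genes had a higher log2 change in that fit. The values rest on 28 to 164 reads, whose counting error alone amounts to 0.21 to 0.31 in the log2 ratio of an embryo. The SD of that ratio over the 5 embryos was 0.55.

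HEY2, a repressor of heart and arterial development in the mouse, was near the lower limit of the table. It had 0.760, 0.808, 0.757, 0.659 and 1.85 normalised read counts in the controls and 1.15, 1.21, 1.64, 1.73 and 1.61 in the operated retinas. The operated eye was higher in embryos 1 to 4 and lower in embryo 5, whose control stood above all other control and operated retinas. The log2 change of 0.35 missed the threshold (SE 0.14, limma adjusted p = 0.095 without the filter), and without embryo 5 it was 0.47 (limma adjusted p = 0.036). With 15 to 44 reads per library, counting error in the log2 ratio of an embryo was 0.34 to 0.44, against an SD over embryos of 0.61.

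**Figure D2:**
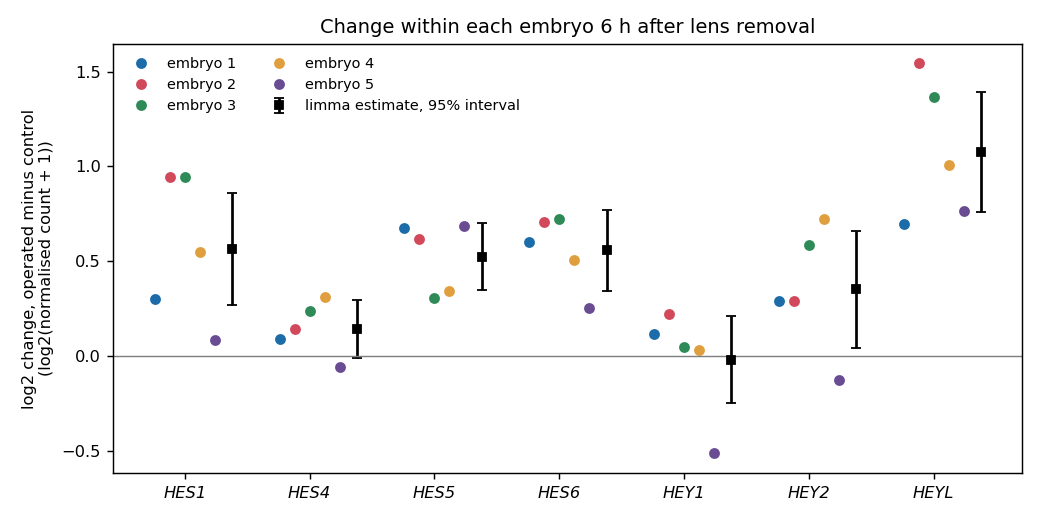
Change of each gene in each embryo (points; operated minus control on the log2(normalised read count + 1) scale) with the limma estimate and its 95% interval (black squares; HEY2 and HEYL from the fit without a filter). HES1 and HEYL are highest in embryos 2 and 3, HES5 is highest in embryos 1 and 5, and embryo 5 has the lowest value of HES1, HES4, HES6, HEY1 and HEY2.

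In level the members did not vary alike between embryos, and in change the order of embryos for HES5 differed from that of the others. The controls of HES1 and HEYL had the same order, embryo 5 highest and then embryos 1, 4, 2 and 3, and both genes rose most in embryos 2 and 3. HES5 and HES6 were instead lowest in embryo 5 in both eyes. In their change, however, HES5 was highest in embryos 5 and 1 and HES6 in embryos 3 and 2. Over the 10 libraries, which share 5 embryos and the same scaling, Pearson's r on the log2 scale was 0.94 between HES1 and HEYL and 0.93 between HES5 and HES6. Between HES1 and HES5 it was 0.18. These values take in differences between embryos as well as between eyes. Over the 5 within-embryo changes alone, r was 0.95 between HES1 and HEYL and -0.39 between HES5 and HES6. Between HES1 and HES5 it was -0.57 there, and between HES1 and HES6 0.86. Every pair with HES5 had a negative r over the changes (-0.87 to -0.29). Every pair without HES5 had a positive r (0.38 to 0.99). Each r rests on 5 embryos. Embryo 5 held the highest change of HES5 and the lowest of HES1, HES4, HES6, HEY1 and HEY2. How far these signs rest on embryo 5 was not tested. For 13 of the 21 pairs of members the same gene changed more in 5 of 5 embryos on the log2(value + 1) scale, and for 12 pairs on the log2 ratio without the added 1. HEYL was above each of the 6 others in every embryo on the first scale and above all but HEY2 on the second. HES1, HES5 and HES6 each exceeded HES4 and HEY1 in 5 of 5 embryos. An exact sign-flip permutation test over 5 embryos cannot go below p = 0.0625 (two-sided). All 13 pairs reached that smallest value (0.10 adjusted over the 21 pairs), and a test of this size cannot decide at the threshold. By size, the log2 change of HES6 exceeded that of HEY1 by 0.58 (SD 0.13, n = 5), and that of HEYL exceeded that of HES1 by 0.51 (SD 0.12). These pairs were picked from the 21 as the largest differences relative to their SD. Others of the 13 lay closer to their spread. HES5 exceeded HES4 by 0.38 (SD 0.32), and HEYL exceeded HES5 by 0.55 (SD 0.48).

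For each member with a mean of at least 10, the genes with the most similar pattern over the 10 libraries were listed, as a description. HES1 was most like TGIF1 (Pearson's r = 0.98), a homeobox repressor, which went from 16.7 to 21.7, and like ARHGAP39 (r = 0.98) and RAB5B (r = 0.97). HES5 was most like TTC12 (r = 0.98), CCNG2 (r = 0.97) and CCDC82 (r = 0.96). HES6 was most like C4H20ORF194 (r = 0.98), VWA8 (r = 0.96) and ENPP4 (r = 0.95). HES4 and HEY1 had CABIN1 (r = 0.92) and SLX4 (r = 0.93) as their closest genes, followed by IQCD and DENND6B and by TRMT61B and LDLRAD4 (r = 0.89 to 0.92). Each was picked as the highest among genes of that level whose symbol does not begin with LOC, from only 5 embryos.

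Few relatives outside the 7 were found by symbol or synonym, a search that misses a relative under a LOC symbol with no synonym. Whether LOC107057363 and LOC419390 belong to the family was not tested. Of the other genes of the same protein class sought, HES2, HES3, HES7 and HELT were not analysed here. BHLHE40, a repressor induced by low oxygen and by the circadian clock, was at 11.3 ± 6.43 and 8.41 ± 2.67 (log2 change -0.30, limma adjusted p = 0.17 without the filter). BHLHE41, its close relative, was at 5.53 ± 0.429 and 5.50 ± 0.543 (limma adjusted p = 0.96). HESX1 shares only the first letters of the name, being a homeobox gene of the anterior neural plate, and was at 17.8 ± 1.40 and 17.9 ± 1.92 (limma adjusted p = 0.96).

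Upstream of the HES genes, 3 of 5 tested Notch ligands and receptors rose and 0 fell, where 10.6% of all 9076 genes were called higher (median log2 change 0.50, against -0.0013 over all genes). With the pigment list as a covariate 0 passed. For DLL1, a Delta ligand made by newborn neurons, the level was higher after the operation, 178 ± 15.8 against 108 ± 13.03 in the controls (log2 change 0.72, limma adjusted p = 0.00063). JAG2, another ligand gene, rose from 33.4 ± 4.47 to 47.6 ± 4.59 (log2 change 0.50). The receptor gene NOTCH1 rose from 130 ± 47.6 to 227 ± 39.9 in 4 of 5 embryos (log2 change 0.86, limma adjusted p = 0.024). NOTCH2 was at 92.2 ± 38.6 and 101 ± 25.9, and the ligand DLL4 at 23.3 ± 5.30 and 24.3 ± 5.35; neither passed.

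Among 24 tested genes that process, modulate or transmit the Notch signal, 5 rose, 0 fell and 19 did not pass (median log2 change 0.081). Over all 9076 genes tested, 10.6% were called higher and 12.3% lower. The 5 calls fell to 1 without embryo 2, without embryo 4 or without the block, to 3 without embryo 3, and to 0 with the pigment, mesenchyme or vessel list as a covariate. NRARP, a feedback inhibitor and itself a Notch target, rose from 45.6 ± 8.998 to 80.8 ± 9.70 in 5 of 5 embryos (log2 change 0.82, limma adjusted p = 0.0028). The glycosyltransferase gene LFNG, which tunes the receptor's choice of ligand, rose from 77.5 ± 18.2 to 96.8 ± 17.4. NUMB, an inhibitor of Notch, rose from 69.1 ± 12.4 to 89.2 ± 10.5, and the coactivator genes MAML1 and MAML2 also passed (log2 changes 0.27 and 0.24). RBPJ itself was at 59.8 ± 8.43 and 68.5 ± 6.68 (limma adjusted p = 0.097). The protease and its partner genes ADAM10, ADAM17, PSEN2, NCSTN and APH1A did not pass, with log2 changes from -0.11 to 0.11.

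HES proteins repress through TLE corepressors and histone deacetylases, and ID proteins can bind partners of this class. Of 14 such genes tested, 1 rose, 0 fell and 13 did not pass (median log2 change 0.087), a share below the 10.6% of all genes called higher. TLE3 rose from 20.04 ± 4.95 to 31.2 ± 8.65 in 4 of 5 embryos (log2 change 0.59, limma adjusted p = 0.031), a call lost without any one of embryos 2 to 5, without the block and with the pigment, mesenchyme, red cell or vessel covariate. TLE1 was at 138 ± 42.7 and 140 ± 30.7. HDAC2 was at 509 ± 35.7 and 496 ± 25.7. The ID genes ID1, ID2 and ID3 had log2 changes of -0.20, -0.08 and 0.16, none of which passed.

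Proneural and early neuronal genes, the group that HES1 and HES5 repress in mice, were 2 higher, 0 lower and 6 not passing of 8 tested (median log2 change 0.28). Over all 9076 genes tested, 10.6% were called higher and 12.3% lower. Among the 8 genes the number higher was 5 without embryo 1, 1 without embryo 2 or 4, and 0 with the pigment, mesenchyme or vessel covariate. DCX, a microtubule protein of young neurons, rose from 1383 ± 68.0 to 1678 ± 182 (log2 change 0.27, limma adjusted p = 0.014). ATOH7, needed for ganglion cells, was at 28.8 ± 9.03 and 26.9 ± 6.76 (limma adjusted p = 0.65). NEUROD4 was at 21.2 ± 7.91 and 27.7 ± 6.997 (limma adjusted p = 0.15). The Notch and proneural counts are read from lists drawn up with results of these data known, so they are no independent evidence of direction.

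**Figure D3:**
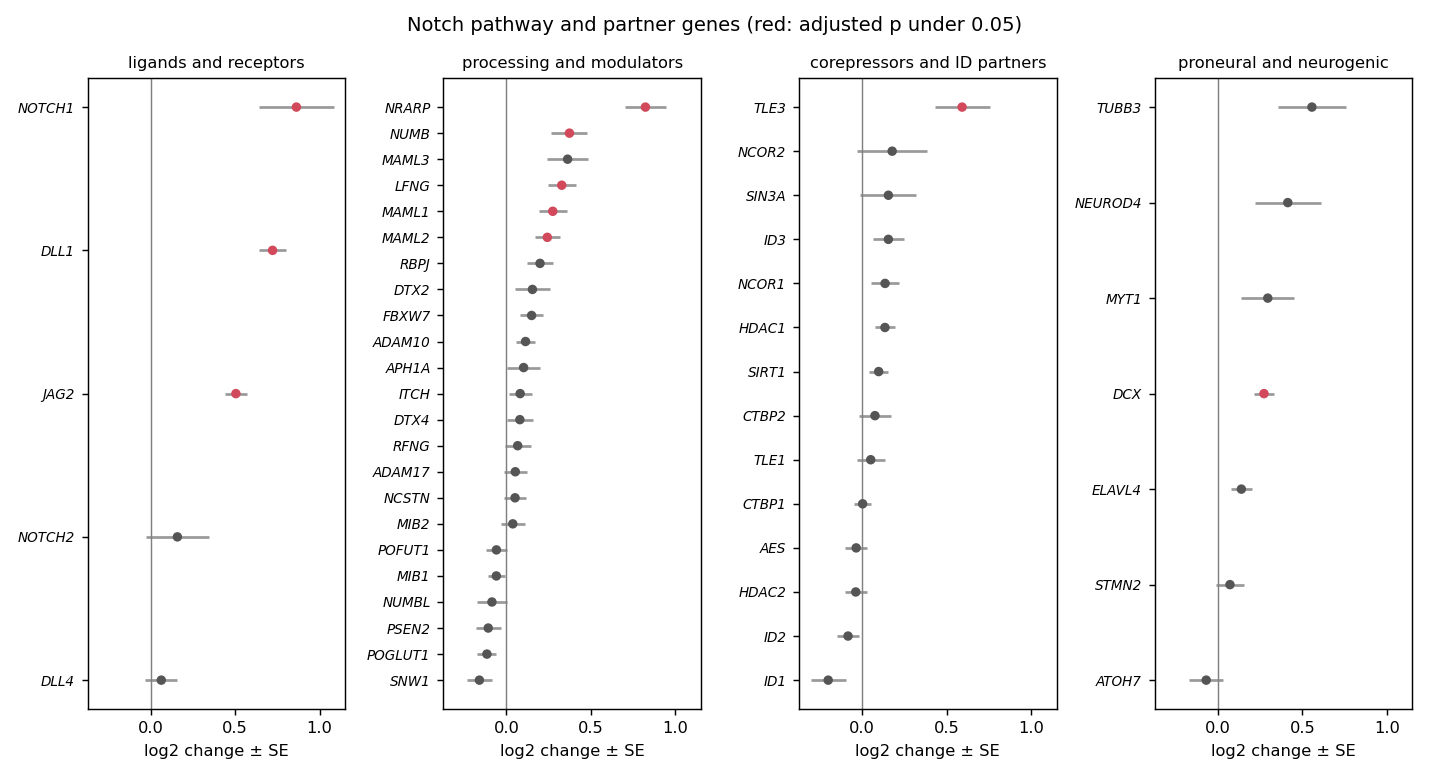
Log2 change (operated minus control, on the log2(normalised read count + 1) scale) ± SE from limma for tested genes of 4 lists, red where adjusted p was under 0.05. All red points lie to the right of 0, and NOTCH1, NRARP and DLL1 lie farthest.

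Genes typical of neighbouring tissues also differed between both eyes. Of the pigment epithelium list 13 of 16 genes were present, with summed levels of 353 to 851 in the controls and 329 to 454 in the operated retinas, lower in 5 of 5 embryos, although the mean of their log2 levels was higher in embryo 1. Of 10 of 15 periocular mesenchyme genes the sums were 204 to 375 and 230 to 314, higher in 4 of 5 embryos, although the mean of their log2 levels was lower in 4 of 5. Blood vessel genes, 12 of 13, gave sums of 99.4 to 162 and 80.6 to 117, and were higher in 1 of 5 embryos. Red cell genes, 5 of 12, gave 30.0 to 378 and 111 to 319, higher in 4 of 5. Lens genes, 5 of 13, gave 79.8 to 126 and 99.2 to 158, higher in 5 of 5. CRYBA4 made up most of these lens sums (means 86.7 in the controls and 109 in the operated retinas). CRYBA4 and ASL1 were higher in 5 of 5 embryos, CRYBA1 and CRYGN in 3 and BFSP2 in 1. No marker that was present was at 0 in the group means, and the listed markers that were absent have no value here. The 6 of 7 neural retina markers found summed to 1009 to 1355 and 1162 to 1353, with 2 of them, among them RAX, called higher and PAX6 lower. Of 6 pigment genes tested, 0 were called higher and 2 lower. Of 5 mesenchyme genes it was 1 and 2, and of 4 vessel genes 0 and 1. Of 5 red cell genes 0 passed, and the 1 lens gene tested was called higher. Over all 9076 genes tested, 10.6% were called higher and 12.3% lower. In bulk RNA fewer cells of a type and less RNA per cell cannot be told apart.

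The changes were next set side by side by embryo. In embryo 1 the mean log2 change was 0.16 for pigment, 0.17 for mesenchyme and 0.21 for vessel genes, and there HES1, HES5, HES6 and HEYL were 1.24, 1.61, 1.55 and 1.91 times the control. In embryo 5, where the pigment and mesenchyme lists fell most (-1.02 each), HES1 and HES6 were 1.06 and 1.22 times the control, their least of any embryo, HES5 was 1.64 times, its most, and HEYL 1.92 times. The neural retina list changed by -0.09, 0.36, 0.50, 0.40 and 0.11 in embryos 1 to 5, highest in embryos 2 to 4 like HES1 (0.30, 0.95, 0.94, 0.55 and 0.09) and HEYL (0.70, 1.54, 1.37, 1.01 and 0.77). The red cell list rose in embryos 1 to 4 and fell in embryo 5 (-1.42), as HES4, HEY1 and HEY2 did. The part of these lists in the results was not tested other than with covariates. The vessel list rose in embryo 1 and fell in embryos 2 to 5, and HEYL rose in each embryo. With the vessel list as a covariate HEYL did not pass (log2 change 0.98, limma adjusted p = 0.064). Which cells gave the HEYL transcript was not tested. Of the 4 vessel genes tested, the receptor gene FLT1 fell from 24.5 ± 2.59 to 10.96 ± 1.82 (limma adjusted p = 0.00018), and CDH5, KDR and PECAM1 did not pass.

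With the mean log2 level of a marker list as a covariate, the log2 changes of HES5, HES6 and HEYL kept their sign and SEs grew. For pigment they were 0.50, 0.65 and 0.95 (limma adjusted p = 0.17, 0.12 and 0.10). With mesenchyme as covariate HES6 and HEYL passed, with red cells HES5 and HEYL, and with vessels HES5. HES1 did not pass with any of these 4 lists, and its change was 0.56, 0.68, 0.38 and 0.53 with pigment, mesenchyme, red cells and vessels. With the neural retina markers as covariate, a fit added after the data were seen, HES1 was at 0.24 (limma adjusted p = 0.21). HES5, HES6 and HEYL passed in that fit (log2 changes 0.68, 0.47 and 0.76).

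**Figure D4:**
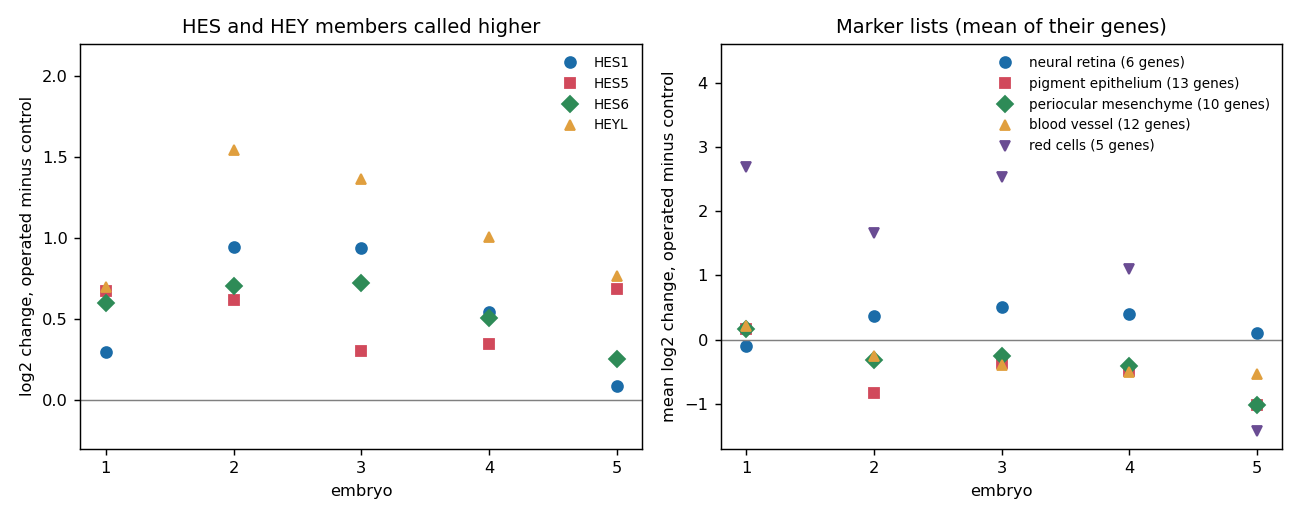
Left, log2 change within each embryo (operated minus control, on the log2(normalised read count + 1) scale) of the 4 genes called higher. Right, the mean log2 change of 5 marker lists in the same embryos. The 4 genes lie above 0 in every embryo, while the pigment, mesenchyme and vessel lists lie above 0 in embryo 1 and below it in embryos 2 to 5.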

How the data were processed

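Values are the authors' normalised read counts as deposited, a signal whose column totals run from 979286 to 1033235. The submitters' processing notes name the build GRCg6a and, with no role or order, HISAT2 2.1.0, featureCounts, Subread 1.6.2, Trim Galore 0.6.4, SAMtools 1.9 and FastQC 0.11.8. The sources used here give no scaling method, annotation or strand setting. Stranded polyadenylated RNA libraries were sequenced as 75 bp paired reads, all under batch number 128, per the labels.

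The spacing of low values gave effective sizes of 18671000 to 26005000 reads, with 1 read worth 0.0385 to 0.0536 units. Between 89.8% and 91.6% of values up to 400 reads were whole. No count model was used, a choice made because normalised values were expected. Levels were not divided by gene length. A difference in level between genes, or the weight of a gene in a summed list, therefore depends on length too. Counting errors cover counting alone.

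limma 3.58.1 (R 4.3.3) was fitted to log2(value + 1) with an intensity trend and a term for each embryo. Genes entered at a mean of 10 or more, and HEY2 and HEYL in a fit with no such filter. The titles pair the eyes, and deviations of the same embryo's libraries correlated at 0.31 to 0.76; in embryo 1 the highest correlation with another embryo was above its own (0.48 against 0.31). The model was checked on simulated data. As alternatives, pseudocounts of 0.5 and 5, a filter at 50 or none, trimmed mean and quantile scaling, no replicate block, a robust prior, marker covariates and the omission of each embryo were tried. All members were named, and of each list up to 4 called genes in order of p or the 2 of highest mean; other genes were named for their role after values were seen. The members and lists were chosen with earlier results of these data known. Python 3.11.15, pandas 2.3.3, numpy 2.4.6 and matplotlib 3.10.9 were used. Some genes of the lists are not reported here, though the counts include them. No sequences were used here, and RefSeq coordinates only for which genes neighbour HES5.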

Additional observations from a re-analysis of the deposited data

Results flagged for a closer look

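In 3 of 21 groups of 5 values tested over the 7 genes, 1 embryo stood apart from the other 4 by Dixon's ratio at the 95% level, and each time it was embryo 5. Chance flags about 1 in 20 groups. The control level of HES5 in embryo 5 was 21.0, below the other 4 controls. The control level of HEY2 in embryo 5 was 1.85, above the other 4. The within-embryo log2 change of HEY1 was -0.51 in embryo 5, where the other 4 embryos were above 0. Of all libraries, the control retina of embryo 5 also had the highest pigment (851), red cell (378) and mesenchyme (375) sums. Its lens sum (79.8) was the lowest. Its neural retina sum (1355) was close to that of the operated retina of embryo 5 (1353), which had the higher mean log2 level of that list (7.66 against 7.56). The part of these lists in the flagged values was not tested.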

How the results depend on the processing

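HES4 and HEY1 did not pass under any alternative, and no member was called lower in any. HEY2 passed without embryo 5 only. Pseudocounts, both rescalings, the robust prior and dropping the filter changed none of the members' calls; a pseudocount of 5 gave a log2 change of 0.55 for HEYL and 0.12 for HEY2. The main fit had 963 genes higher and 1112 lower; at a mean of at least 50 there were 412 and 814, where only 3 members were tested and 1 (HES5) was called. With the covariates the counts were 93 and 13 (pigment), 195 and 73 (mesenchyme), 414 and 314 (red cells), and 137 and 41 (vessels), and of the members 0, 2, 2 and 1 were called higher against 4 in the main fit. Without the replicate block 2 members, HES1 and HEYL, were called; HES5 (0.53) and HES6 (0.56) kept their change. Log2 changes that lost the call were, with pigment, 0.56 for HES1, 0.50 for HES5, 0.65 for HES6 and 0.95 for HEYL; with mesenchyme, 0.68 for HES1 and 0.51 for HES5; with red cells, 0.38 for HES1 and 0.42 for HES6; with vessels, 0.53 for HES1, 0.63 for HES6 and 0.98 for HEYL; and with the neural retina list, 0.24 for HES1. HEY1 changed sign with pigment (0.15), mesenchyme (0.19) and vessels (0.12). Leaving out each embryo gave 387 to 1378 genes higher, 301 to 1468 lower and 3 to 5 members called, with HES1 at 0.47 to 0.68, HES5 at 0.48 to 0.58, HES6 at 0.52 to 0.63, HEYL at 0.96 to 1.17, HEY1 at -0.077 to 0.11 and HEY2 at 0.26 to 0.47. Among the omissions the fewest genes were called without embryo 4. The covariate fits leave fewer residual degrees of freedom, and the lists used as covariates themselves differed between the eyes. With pigment the SE of the HES1 change was 0.22, against 0.13 in the main fit. The cause of each lost call was not tested. HEY2 rests on the fewest reads, 15 to 44 per library.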

Other observations

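Several partners of the HES genes lay below the mean of 10 and were looked at only in the fit without the filter, after their values were seen. The Notch ligand gene JAG1 fell from 7.87 ± 3.16 to 5.01 ± 2.00 (SD, n = 5; log2 change -0.55, limma adjusted p = 0.042), lower in 4 of 5 embryos, while JAG2 and DLL1 rose. MFNG, a relative of LFNG, rose from 3.82 ± 0.832 to 6.43 ± 1.59 in 5 of 5 embryos (log2 change 0.61, limma adjusted p = 0.0068). OLIG2, a helix-loop-helix factor of progenitors, rose from 1.31 ± 0.191 to 2.39 ± 0.849 in 4 of 5 embryos (log2 change 0.52, limma adjusted p = 0.041). NEUROG2, a proneural factor, was at 4.18 ± 1.31 and 4.14 ± 1.12 (limma adjusted p = 0.99), and NEUROD1 at 7.55 ± 1.95 and 9.67 ± 1.32 (limma adjusted p = 0.095).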
